A study of Homo sapiens with 16 samples.

Results

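The 9 genes described here mark the epithelial and mesenchymal states of a tumor cell, its matrix and its capacity to move: EPCAM, CDH1, CDH2, VIM, FN1, S100A4, ACTA2, ZEB1 and SNAI2. They were taken by symbol, as the protein-coding row of that name, and all 9 were found among the 60560 genes of each of 2 expression tables. RNA sequencing of the colorectal cancer cell lines SW480 and HCT116 gave 1 table for an experiment with curcumin, a turmeric extract, and 1 for an experiment with andrographis, an extract of Andrographis paniculata leaves. Each experiment held treated and untreated control cells of both lines, with 2 libraries per group, 16 libraries in all. The 8 groups were thus SW480 curcumin, SW480 control, HCT116 curcumin and HCT116 control, and the same 4 for andrographis, with its own controls. Cells were exposed for 16 h, and the labels give no concentration. For its experiments after the viability assays, the study reports lower concentrations of both compounds in HCT116 than in SW480. If these libraries followed that, line and dose cannot be told apart in the differences of response between lines below. Both lines grew in the same serum-supplemented medium as pure cultures, without stromal cells. The controls are labelled as non-treated in both experiments. Column names of the andrographis data hold an A or a D after the line, taken here to mean andrographis and its DMSO control, and a reversed meaning would turn every andrographis direction below round.

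Epithelial cells adhere through E-cadherin (CDH1) and EpCAM (EPCAM). In the epithelial-mesenchymal transition, repressors of the SNAIL and ZEB families bind E-box motifs of epithelial promoters, while N-cadherin (CDH2), the intermediate filament vimentin (VIM), fibronectin (FN1), the calcium-binding S100A4 and smooth muscle actin (ACTA2) are widely used as markers of the mesenchymal side. In colorectal cancer, low E-cadherin and high S100A4 are known as features of invasive growth.

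Levels are given as FPKM, reads per kilobase of transcript and per megareads sequenced, which the deposited values hold as log2(FPKM + 1). All fold changes named log2 are differences on that scale, which understates the change of genes near or below 1 FPKM. A gene is said to have risen or fallen, or to be higher or lower, only where limma gave an adjusted p below 0.05 over all genes tested, that is genes reaching 1 FPKM in 2 or more libraries. Of the 9 genes, 8 were tested in the andrographis experiment and 6 in the curcumin experiment. CDH2 was tested in neither, and ZEB1 and SNAI2 were below the filter in the curcumin libraries. VIM passed the filter through its SW480 libraries alone in both experiments.

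Approximate depths were 9.4 to 23.11 megareads in the curcumin experiment and 15.69 to 32.27 megareads in the andrographis experiment, with SW480 curcumin replicate 1 and HCT116 curcumin replicate 2 (10.36 megareads) the shallowest. Replicates differed by a median of 0.06 to 0.24 on the log2 scale, most in the andrographis experiment among SW480 andrographis (0.24) and SW480 control libraries (0.19) and least among HCT116 andrographis libraries (0.06). Most fibroblast, endothelial and immune markers stayed below 1 FPKM. Of 9 fibroblast markers, COL1A1 alone reached 1 FPKM in any library. Their summed level was 8.29 to 8.44 FPKM in HCT116 controls of the andrographis experiment. No endothelial marker of 6 reached 1 FPKM, and of 7 immune markers at most 1 did in a line and experiment. KRT8, KRT18, KRT19 and CDX2 of 10 colon epithelial markers passed 1 FPKM in both lines, while CDX1, CDH17, GPA33 and LGALS4 did not in either line. The summed level of the 10 colon epithelial markers, mostly keratins, was 998 to 1080 FPKM in SW480 andrographis libraries against 1420 to 1700 FPKM in their controls, and 1150 to 1160 FPKM in HCT116 andrographis libraries against 811 to 880 FPKM in theirs, and its part in the andrographis results was not tested.

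Promoters of 2 genes are shown because S100A4 and FN1 had the largest falls among the 9 genes, both in HCT116 cells with andrographis. Each run holds the 250 bases before the RefSeq start site on build GRCh38.p14, 5′ to 3′ along the minus strand, at chr1:153545807-153546056 for S100A4 and chr2:215436069-215436318 for FN1. Capitals mark an E-box (CAGGTG or CACCTG, either strand) in S100A4 and a cyclic AMP response element (TGACGTCA, its own reverse complement) in FN1.
S100A4: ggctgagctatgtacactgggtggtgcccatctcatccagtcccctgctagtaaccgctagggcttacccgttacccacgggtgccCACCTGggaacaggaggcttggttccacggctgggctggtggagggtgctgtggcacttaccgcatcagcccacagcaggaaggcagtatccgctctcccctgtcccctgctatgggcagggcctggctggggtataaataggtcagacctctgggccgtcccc
FN1: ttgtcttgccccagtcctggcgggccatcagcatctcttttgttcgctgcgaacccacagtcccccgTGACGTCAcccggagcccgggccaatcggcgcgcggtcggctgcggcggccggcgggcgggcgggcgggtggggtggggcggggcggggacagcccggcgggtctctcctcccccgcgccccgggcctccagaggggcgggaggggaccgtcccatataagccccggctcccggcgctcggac
Counted back from the base before the start as -1, the E-box begins at -164 in S100A4 and the response element at -183 in FN1, whose window holds no E-box. The E-box letters occur in 17.5% and the response element in 1.65% of all 35116 RefSeq promoter windows of this length. Of the 9 genes, 6 had promoter entries, 14 windows in all, and E-boxes were also found in 2 of the 7 windows of ZEB1. A match of letters describes the window and is no measurement of binding. VIM, ZEB1 and ACTA2 lie on chromosome 10, EPCAM on 2, CDH1 on 16 and CDH2 on 18.

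The first comparison asked where the 2 lines stood before treatment, SW480 control against HCT116 control within each experiment. SW480 had the higher level of most mesenchymal genes and the lower level of CDH1. In the andrographis controls, 7 of the 8 genes tested differed, 6 higher in SW480 and CDH1 lower, where 60.7% of all 12811 genes tested differed. In the curcumin controls, 5 of 6 differed, 4 higher in SW480 and CDH1 lower, where 62.7% of all 16341 genes differed. VIM, which entered the test only where it was high, had to differ and is in both counts, which leave 6 of 7 and 4 of 5 genes without it. With so many genes apart between these lines, the counts describe the 9 genes and set them apart from no others.

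VIM is given as levels without a test, since its SW480 libraries alone brought it past the filter. In the curcumin experiment it was at 41.4 and 44.1 FPKM in SW480 control libraries, against 0.270 and 0.359 FPKM in HCT116 control libraries, a log2 difference of 5.06. In the andrographis experiment the levels were 17.8 and 22.6 FPKM in SW480 controls and 0.353 and 0.195 FPKM in HCT116 controls (log2 difference 4.05). Vimentin mRNA was therefore abundant in SW480, above 95.2% of tested genes in the curcumin controls, and near the bottom of the range in HCT116, above 5.2% of them. The HCT116 levels correspond to 12 to 34 reads per library in the curcumin experiment and 17 to 42 in the andrographis experiment, both arms included. In bulk libraries, fewer cells with a transcript and less of it per cell cannot be told apart.

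FN1, the fibronectin of the pericellular matrix, followed in the same direction. Its level was 86.3 and 72.1 FPKM in SW480 controls and 16.3 and 16.6 FPKM in HCT116 controls of the andrographis experiment (log2 difference 2.20, SE 0.16, adjusted p = 3.06e-05). In the curcumin experiment it was 7.14 and 7.52 FPKM in SW480 controls and 1.58 and 1.28 FPKM in HCT116 controls (log2 difference 1.78, SE 0.09, adjusted p = 7.75e-06). The order of the lines was the same in both tables, at levels that differed between the tables.

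CDH1 ran the other way. The curcumin experiment gave 6.63 and 7.08 FPKM in SW480 controls against 21.3 and 21.9 FPKM in HCT116 controls (log2 difference -1.52, SE 0.06, adjusted p = 2.87e-06), and the andrographis experiment 8.97 and 8.76 FPKM in SW480 controls against 29.5 and 28.8 FPKM in HCT116 controls (-1.61, SE 0.17, adjusted p = 0.000156). No library of one line overlapped the other line. EPCAM, the other epithelial adhesion gene, did not share that order. It was at 198 and 204 FPKM in SW480 controls and 127 and 136 FPKM in HCT116 controls of the curcumin experiment, higher in SW480 by 0.61 (SE 0.07, adjusted p = 0.000469). In the andrographis experiment the SW480 control libraries lay at 78.5 and 161 FPKM, on either side of 88.5 and 82.4 FPKM in the HCT116 controls, and the difference of 0.39 (SE 0.31, adjusted p = 0.306) did not pass. Leaving out SW480 control replicate 1 gave 0.91 (adjusted p = 0.00736) and leaving out replicate 2 gave -0.12 (adjusted p = 0.587), so single libraries set that value.

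The transcription factors ranked differently by line. SNAI2 stood above 62.9% of tested genes in SW480 controls of the andrographis experiment, level with CDH1 (62.5%), and above 3.82% in HCT116 controls, while ZEB1 stood above 37.1% and 8.58%. In the andrographis controls SNAI2, which encodes the repressor SLUG, was at 10.8 and 7.26 FPKM in SW480 and at 0.397 and 0.231 FPKM in HCT116 (log2 difference 2.91, SE 0.22, adjusted p = 3.66e-05). ZEB1 was at 3.06 and 3.45 FPKM in SW480 and at 1.02 and 0.998 FPKM in HCT116 (1.08, SE 0.17, adjusted p = 0.00131). In the curcumin controls, where neither passed the filter, SNAI2 had 0.447 and 0.393 FPKM in SW480 against 0.0440 and 0.0343 FPKM in HCT116, where these were 3 and 2 reads. ZEB1 had 0.959 and 0.957 FPKM in SW480 controls of that experiment and 0.685 and 0.638 FPKM in HCT116 controls. Without the filter, SNAI2 passed there (0.45, adjusted p = 0.0138) and ZEB1 did not (0.24, adjusted p = 0.218). Both factors were thus above HCT116 in every SW480 control library, and libraries of the lines were likewise apart, in either direction, for 82.6% of all genes tested in the andrographis controls and 81% in the curcumin controls.

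S100A4 was among the most abundant transcripts in both lines, above 98.3% or more of tested genes in every control group. It was at 326 and 316 FPKM in SW480 controls and 120 and 139 FPKM in HCT116 controls of the curcumin experiment (log2 difference 1.31, SE 0.12, adjusted p = 0.000138), and at 237 and 217 FPKM in SW480 controls and 111 and 110 FPKM in HCT116 controls of the andrographis experiment (1.03, SE 0.12, adjusted p = 0.000255). ACTA2, the actin of smooth muscle and myofibroblasts, was far lower. It had 7.27 and 8.36 FPKM in SW480 controls and 4.51 and 4.23 FPKM in HCT116 controls of the andrographis experiment (0.71, SE 0.11, adjusted p = 0.00148). In the curcumin controls it had 1.29 and 1.76 FPKM in SW480 and 0.696 and 1.12 FPKM in HCT116, a difference of 0.41 (SE 0.17, adjusted p = 0.0769) that did not pass, although the libraries of the lines did not overlap. It passed among protein-coding genes alone (adjusted p = 0.0181), where 76.8% of genes tested did, against 62.7% in the fit reported. The difference was 0.57 without HCT116 control replicate 2 and as small as 0.25 without HCT116 control replicate 1.

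CDH2 was at or near 0 in every library, with 0 to 7 reads per library in the curcumin experiment and 1 to 6 in the andrographis experiment. No fold change is given for it. N-cadherin mRNA was thus not measurable as a difference at this depth in either line or arm.

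**Figure D1:**
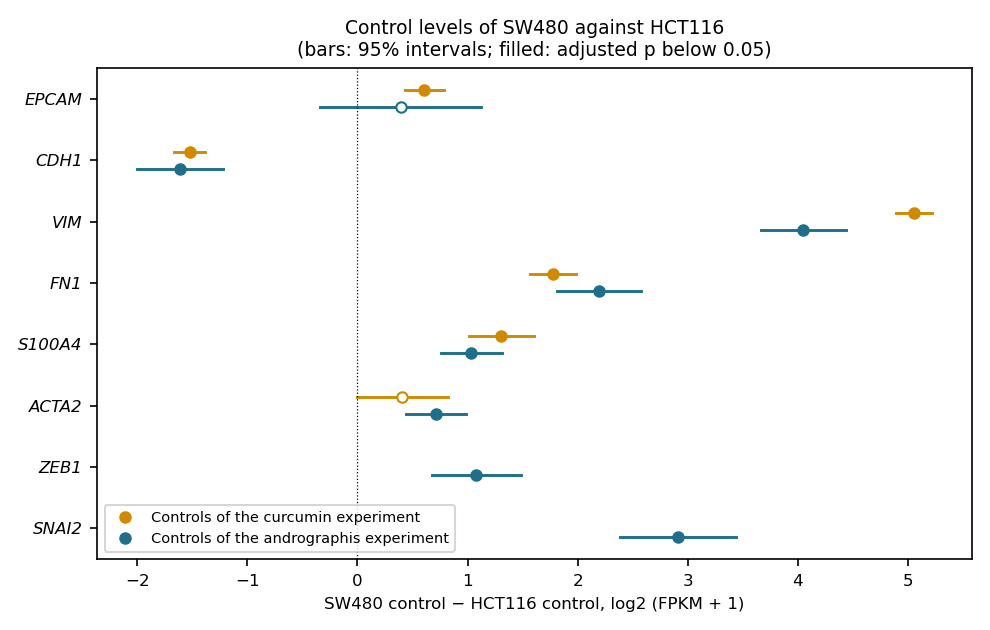
SW480 control minus HCT116 control on the log2(FPKM + 1) scale for the 8 genes tested in at least 1 experiment, with 95% intervals from the fit (horizontal axis) and 1 row per gene; filled points passed an adjusted p of 0.05, open points did not. CDH1 alone lies left of 0, VIM lies farthest right at 5.06 and 4.05, and ZEB1 and SNAI2 have a value for the andrographis controls only.

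Between-line differences of related genes were of both signs. Among 25 tested genes of epithelial adhesion and keratins, 7 were higher and 8 lower in SW480 controls of the andrographis experiment, and of 24 in the curcumin experiment 8 were higher and 9 lower. RAB25, an epithelial small GTPase, was lower in SW480 by -5.44 and by -4.84 on the log2 scale in the andrographis and curcumin controls, and the tight junction claudin CLDN1 was higher by 4.57 and 4.17. GRHL2, a factor that maintains the epithelial state, averaged 0.0114 FPKM in SW480 and 7.28 FPKM in HCT116 curcumin controls. Of the factors of the transition, SNAI1 was lower in SW480 in both experiments (1.53 against 6.72 FPKM in the andrographis controls, 1.17 against 4.40 FPKM in the curcumin controls), opposite in sign to SNAI2, while the homeobox factor PRRX1 was higher in the curcumin controls at 7.96 against 0.0414 FPKM. Matrix genes split evenly, with 11 higher and 10 lower of 23 tested in the andrographis controls and 7 higher and 8 lower of 19 in the curcumin controls. TGFBI, a matrix protein, was higher in SW480 by 5.38 and 4.76, and the collagens COL6A2 and COL12A1 were lower by -5.33 and -4.73 in the andrographis controls and by -4.48 and -3.69 in the curcumin controls. S100A14 was lower in SW480 by -5.14 and -4.65, opposite to S100A4, and S100A2 was higher by 4.89 and 2.55. SMAD4, the shared mediator of TGF-beta signals, was lower in SW480 curcumin controls by -3.56 on the log2 scale. The calls of the list genes named here held under every alternative run. Genes near 0 in 1 line, such as GRHL2, RAB25, CLDN1 and PRRX1, passed the filter through the other line alone. Like VIM, they had to differ, so the holding of their calls adds nothing.

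Andrographis was compared with control within each line. In SW480, 2 of the 8 genes fell, CDH1 and FN1, and none rose; of all 12811 genes tested, 7.28% changed and 4.21% fell. In HCT116, FN1 and S100A4 fell and ACTA2 rose, 3 of 8 genes, where 6.82% of all genes changed, 2.87% higher and 3.95% lower. The median log2 fold change of the 8 genes was -0.23 in SW480 and 0.02 in HCT116, against 0.00 and -0.02 for all genes tested. FN1 alone passed in both lines.

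FN1 was at 48.7 and 36.0 FPKM in SW480 andrographis libraries, against 86.3 and 72.1 FPKM in SW480 control libraries. The treated libraries lay below both controls, with a ratio of means of 0.535 on the FPKM scale and a log2 fold change of -0.90 (SE 0.16, adjusted p = 0.0275). In HCT116 it was at 4.96 and 4.96 FPKM with andrographis, against 16.3 and 16.6 FPKM in controls, with no overlap. The ratio of means was 0.302 and the log2 fold change -1.55 (SE 0.16, adjusted p = 0.00494). The difference of the 2 effects, SW480 minus HCT116, was 0.65 (SE 0.23, adjusted p = 0.181), so the lines were not shown to differ. The call in SW480 was lost without either SW480 control library or any HCT116 library (adjusted p = 0.0686 to 0.0864), without the filter (0.0667) and with the 4 libraries of the comparison alone (0.201). In HCT116 it was lost without any 1 of the 4 HCT116 libraries (0.0659 to 0.0763), with the fold change at -1.54 to -1.56 each time.

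S100A4 showed the largest change of the set with andrographis on the log2 scale. On the FPKM scale SNAI2 in HCT116, given below, had the larger ratio between its group means, although SNAI2 did not pass. In HCT116 S100A4 was at 33.0 and 33.3 FPKM with andrographis, against 111 and 110 FPKM in controls. The ratio of means was 0.3002 on the FPKM scale and the log2 fold change -1.71 (SE 0.12, adjusted p = 0.00104). This call held in all 17 alternatives (adjusted p up to 0.0322). In SW480 the values were 206 and 182 FPKM with andrographis, against 237 and 217 FPKM in controls, without overlap, as for 44.2% of all genes, and the log2 fold change was -0.22 (SE 0.12, adjusted p = 0.277). The difference between the lines itself passed, at 1.48 on the log2 scale (SE 0.17, adjusted p = 0.015), where 2.36% of all genes differed in their response. That difference was lost without SW480 control replicate 2 (adjusted p = 0.0522) or without any 1 of the 4 HCT116 libraries (0.133 to 0.165).

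ACTA2 moved in the opposite direction to S100A4 in HCT116. It was at 8.49 and 7.55 FPKM with andrographis, against 4.51 and 4.23 FPKM in HCT116 controls, a ratio of means of 1.84 on the FPKM scale and a log2 fold change of 0.75 (SE 0.11, adjusted p = 0.0167). In SW480 it had 6.53 and 6.08 FPKM with andrographis and 7.27 and 8.36 FPKM in controls (-0.27, SE 0.11, adjusted p = 0.194). The responses differed between the lines by -1.02 (SE 0.16, adjusted p = 0.0354), so ACTA2 and S100A4 were the 2 of 8 genes with a tested difference of response. The rise in HCT116 was lost without any 1 of the 4 HCT116 libraries (adjusted p = 0.131 to 0.189), and the difference was lost without either SW480 control or any 1 of those 4 (0.0531 to 0.221), without the filter (0.055) and at a pseudocount of 0.1 (0.0569).

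CDH1 fell in SW480, the line with the lower control level. SW480 libraries had 4.35 and 2.75 FPKM with andrographis, against 8.97 and 8.76 FPKM in controls, a ratio of means of 0.4001 on the FPKM scale and a log2 fold change of -1.14 (SE 0.17, adjusted p = 0.0172). In HCT116 it was at 20.7 and 20.2 FPKM with andrographis, against 29.5 and 28.8 FPKM in controls. That change of -0.49 (SE 0.17, adjusted p = 0.132) did not pass when all 8 libraries shared 1 estimate of spread, and passed with the 4 HCT116 libraries alone (adjusted p = 0.00033), without SW480 andrographis replicate 1 or 2 (0.0138 and 0.0135) and at a pseudocount of 10 (0.0232). In these settings 46.5%, 15.2%, 15.3% and 10.9% of all genes were called in HCT116, against 6.82% with all libraries at a pseudocount of 1. In both lines every treated library lay below both controls, and groups did not overlap for 44.2% of all genes in SW480 and 72.5% in HCT116. The difference between the lines was -0.65 (SE 0.23, adjusted p = 0.189) and was -0.91 (adjusted p = 0.0155, where 14.3% of all genes differed) without SW480 andrographis replicate 1 and -0.39 without replicate 2. The SW480 call was lost without either SW480 control or any HCT116 library (0.0516 to 0.0721) and with the 4 SW480 libraries alone (0.117).

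SNAI2 was among the genes with few reads in HCT116. It was at 1.24 and 1.07 FPKM in HCT116 andrographis libraries (119 and 92 reads), against 0.397 and 0.231 FPKM in HCT116 controls (30 and 15 reads). The groups did not overlap, as for 72.5% of all genes tested in that comparison. The ratio of means was 3.68 on the FPKM scale and the log2 fold change 0.72 (SE 0.22, adjusted p = 0.107), which did not pass, and passed at a pseudocount of 0.1 (1.63, adjusted p = 0.0418), with the 4 HCT116 libraries alone (adjusted p = 0.00265, where 46.5% of all genes passed) and with a term for the replicate number (0.0391). In SW480 it was at 9.09 and 6.08 FPKM with andrographis and at 10.8 and 7.26 FPKM in controls, with overlapping groups (-0.22, SE 0.22, adjusted p = 0.585). The difference between the lines was -0.94 (SE 0.31, adjusted p = 0.166), with -1.19 (adjusted p = 0.0479) without SW480 andrographis replicate 1 and -0.68 without replicate 2. ZEB1 had 3.28 and 5.14 FPKM in SW480 andrographis libraries against 3.06 and 3.45 FPKM in controls (0.27, SE 0.17, adjusted p = 0.368), and 1.35 and 1.46 FPKM in HCT116 andrographis libraries against 1.02 and 0.998 FPKM in controls (0.26, SE 0.17, adjusted p = 0.433). Without SW480 andrographis replicate 1 its change in SW480 was 0.53 (adjusted p = 0.0227), resting on 1 treated library in a setting where 23.2% of all genes passed, and without replicate 2 it was 0.01.

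VIM and EPCAM did not pass in either line. VIM was at 14.9 and 19.1 FPKM in SW480 andrographis libraries and 17.8 and 22.6 FPKM in controls, with overlap (-0.23, 95% interval -0.62 to 0.15, adjusted p = 0.419). In HCT116 it remained at 0.113 and 0.132 FPKM with andrographis and 0.353 and 0.195 FPKM in controls, 17 and 18 reads against 42 and 20 (-0.18, adjusted p = 0.588). EPCAM had 110 and 140 FPKM with andrographis and 78.5 and 161 FPKM in SW480 controls, the treated libraries lying between the controls (0.14, 95% interval -0.59 to 0.87, adjusted p = 0.836). In HCT116 it had 101 and 98.0 FPKM with andrographis and 88.5 and 82.4 FPKM in controls (0.21, adjusted p = 0.763), and passed with those 4 libraries alone (adjusted p = 0.0167, where 46.5% of all genes did). The intervals leave room for changes of EPCAM in either direction in both lines.

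**Figure D2:**
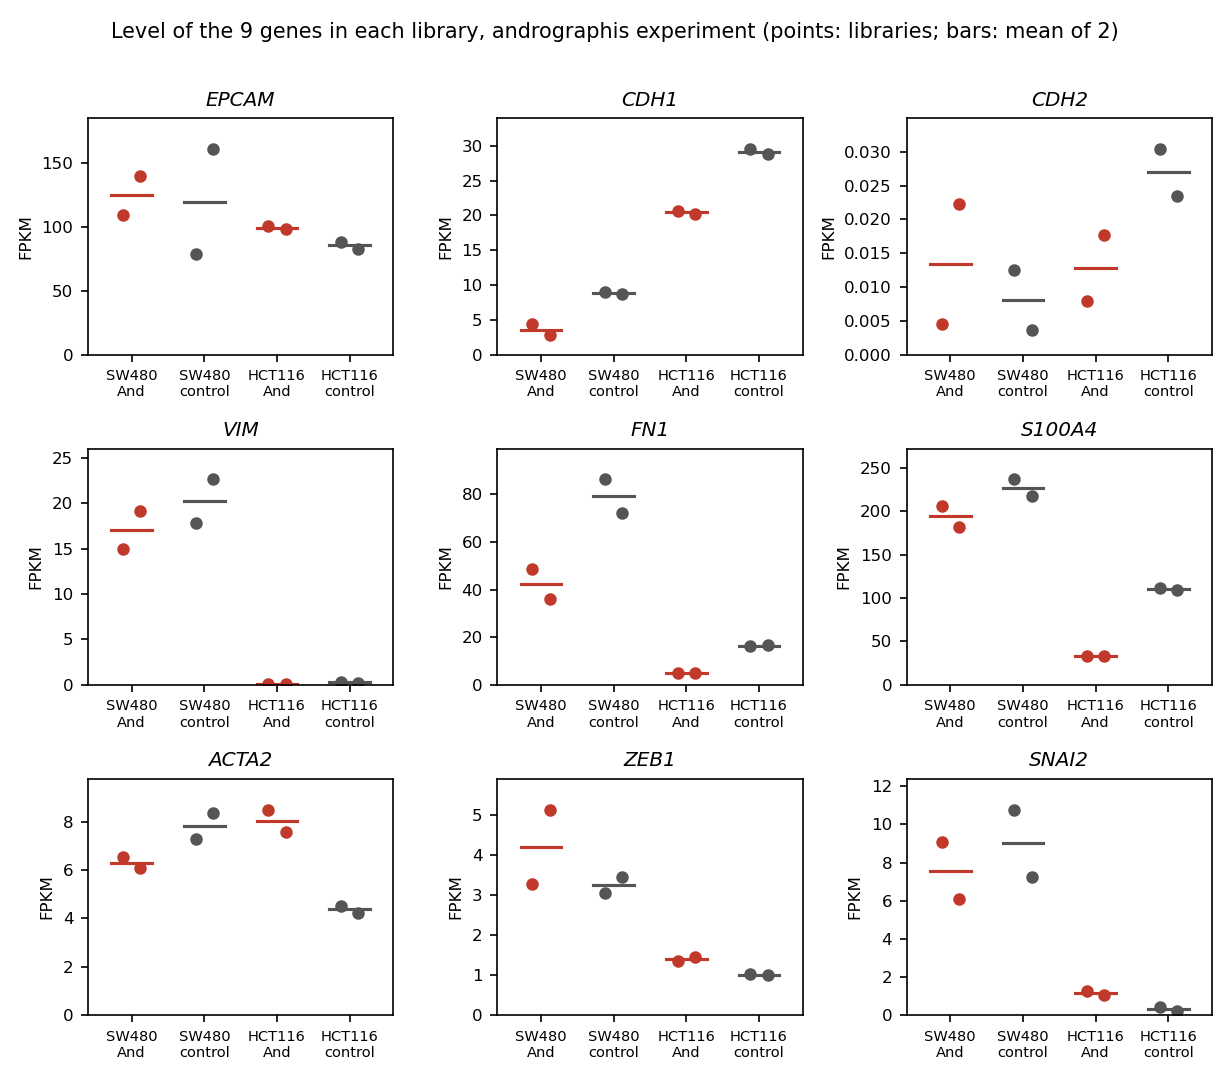
FPKM (vertical axis, starting at 0, own scale per gene) of the 9 genes in the 16 h andrographis experiment; points are single libraries, horizontal bars the mean of 2, red for andrographis and grey for control, SW480 left and HCT116 right. S100A4 is near 33 FPKM in treated against about 110 in control HCT116 libraries, treated libraries lie below both controls for CDH1 and FN1 in both lines, and the SW480 control libraries of EPCAM lie far apart at 161 and 78.5 FPKM.

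At the looser threshold (unadjusted p below 0.05 with an absolute log2 fold change above 0.5), the same 2 genes passed in SW480, where 11.8% of all genes did. In HCT116 SNAI2 was added to FN1, S100A4 and ACTA2, 4 of 8 genes, where 9.19% of all genes passed.

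Curcumin was compared with control in the same way. None of the 6 tested genes passed in SW480 (0.306% of all 16341 genes did, 50 genes) and none in HCT116 (0.171%, 28 genes). At an unadjusted p below 0.05, FN1, CDH1 and S100A4 passed in SW480 and S100A4 in HCT116, where 12.2% and 11.8% of all genes did. The median log2 fold change of the 6 genes was -0.24 in SW480 and -0.10 in HCT116, against -0.02 and 0.00 for all genes.

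S100A4 was at 222 and 235 FPKM in SW480 curcumin libraries, against 326 and 316 FPKM in controls, a ratio of 0.711 (log2 fold change -0.49, SE 0.12, adjusted p = 0.181). In HCT116 it was at 75.4 and 94.7 FPKM with curcumin, against 120 and 139 FPKM in controls, a ratio of 0.657 (-0.61, SE 0.12, adjusted p = 0.159). Treated and control libraries did not overlap in either line, as for 46.3% of all genes in SW480 and 37.4% in HCT116. The HCT116 value passed the looser threshold, which 1.85% of all genes did. It passed the adjusted one among protein-coding genes alone (adjusted p = 0.0349) or above a filter of 10 FPKM (0.0463). In these settings 1.73% and 2.31% of genes tested passed, against 0.171% in the fit reported. The 2 effects differed by 0.11 (95% interval -0.30 to 0.53, adjusted p = 0.941).

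FN1 had 5.23 and 4.68 FPKM in SW480 curcumin libraries, against 7.14 and 7.52 FPKM in controls, a ratio of 0.676 without overlap (log2 fold change -0.49, SE 0.09, adjusted p = 0.102). It passed among protein-coding genes alone (adjusted p = 0.0173) and at a pseudocount of 10 (0.03). In these settings 302 of 11431 and 188 of 16341 genes tested passed in SW480, against 50 of 16341 in the fit reported. In HCT116 it had 1.23 and 1.17 FPKM with curcumin and 1.58 and 1.28 FPKM in controls (-0.14, SE 0.09, adjusted p = 0.604). CDH1 had 5.79 and 5.35 FPKM in SW480 curcumin libraries and 6.63 and 7.08 FPKM in controls (-0.26, SE 0.06, adjusted p = 0.152), while its HCT116 libraries overlapped at 22.0 and 21.4 FPKM with curcumin and 21.3 and 21.9 FPKM in controls (0.01, 95% interval -0.13 to 0.15, adjusted p = 0.995). None of the 6 genes differed in response between the lines, nor did any of all genes (limma, 0% called, against 8.21% at an unadjusted p below 0.05, with 1 gene called without the trend, 11 with a filter at 10 FPKM, 28 at a pseudocount of 10 and 40 among protein-coding genes alone).

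The other genes did not pass or were not tested with curcumin. VIM was at 43.8 and 42.0 FPKM in SW480 curcumin libraries and 41.4 and 44.1 FPKM in controls (0.00, 95% interval -0.16 to 0.17), and EPCAM at 204 and 204 FPKM against 198 and 204 FPKM (0.03, 95% interval -0.15 to 0.20). In HCT116, EPCAM was at 133 and 148 FPKM with curcumin and 127 and 136 FPKM in controls (0.09, 95% interval -0.08 to 0.27), and VIM at 0.304 and 0.224 FPKM against 0.270 and 0.359 FPKM. ACTA2 had 1.36 and 0.974 FPKM in SW480 curcumin libraries and 1.29 and 1.76 FPKM in controls (-0.22, adjusted p = 0.699), and 0.668 and 0.519 FPKM in HCT116 curcumin libraries and 0.696 and 1.12 FPKM in controls (-0.25, adjusted p = 0.64). SNAI2, not tested, had 0.778 and 0.554 FPKM in SW480 curcumin libraries (24 and 42 reads) and 0.447 and 0.393 FPKM in controls (23 and 28 reads). ZEB1, not tested either, had 0.959 and 1.18 FPKM in SW480 curcumin libraries and 0.959 and 0.957 FPKM in controls, and 0.796 and 0.603 FPKM in HCT116 curcumin libraries and 0.685 and 0.638 FPKM in controls.

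**Figure D3:**
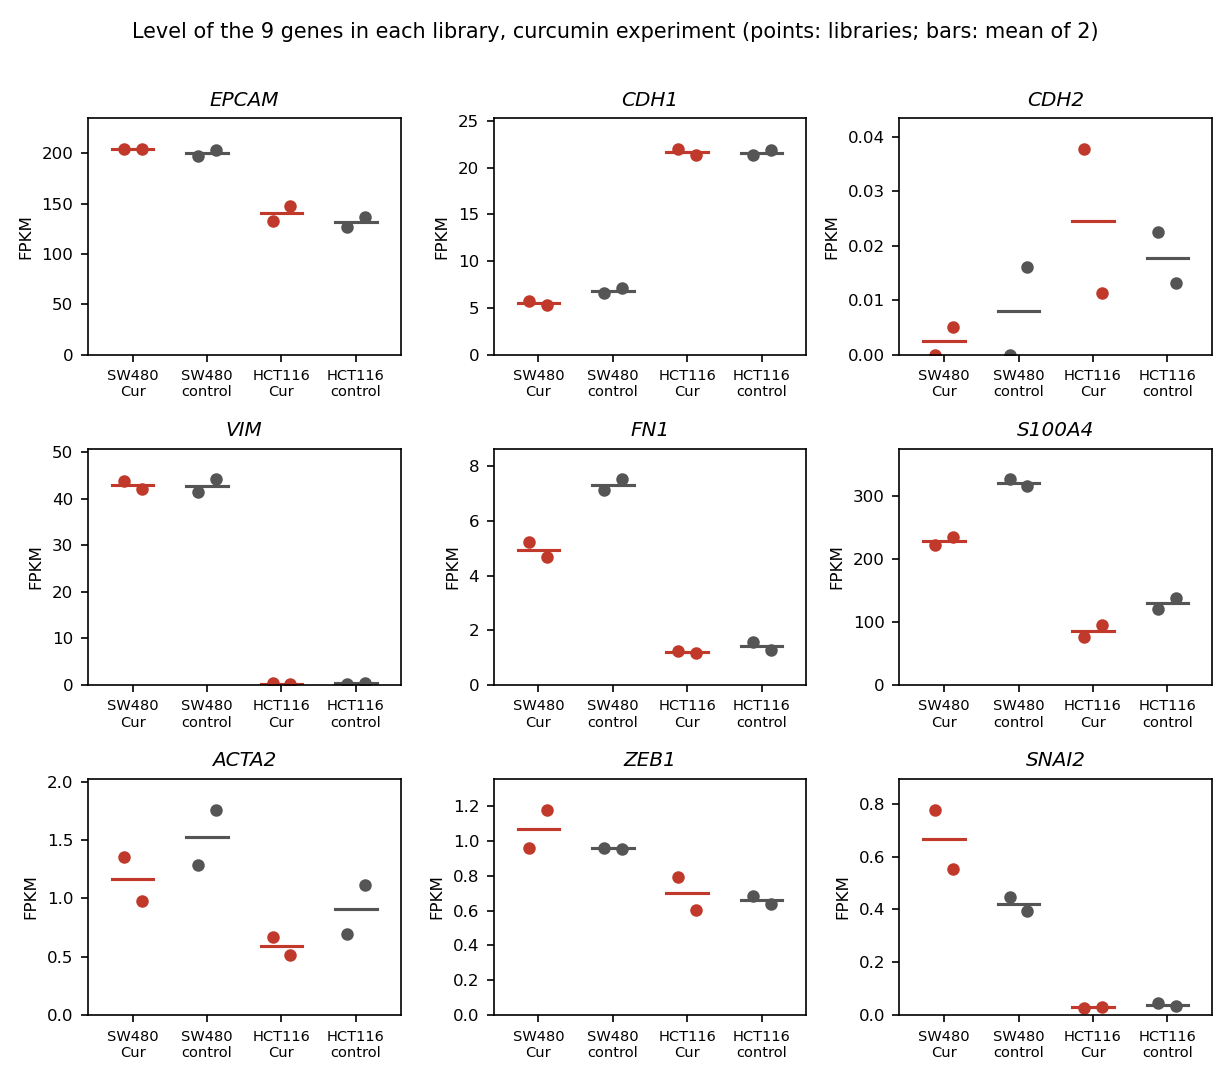
FPKM (vertical axis, starting at 0, own scale per gene) of the 9 genes in the 16 h curcumin experiment; points are single libraries, horizontal bars the mean of 2, red for curcumin and grey for control, SW480 left and HCT116 right. S100A4 lies below its controls with curcumin in both lines, at 222 and 235 against 326 and 316 FPKM in SW480, while VIM and EPCAM show no such gap.

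**Figure D4:**
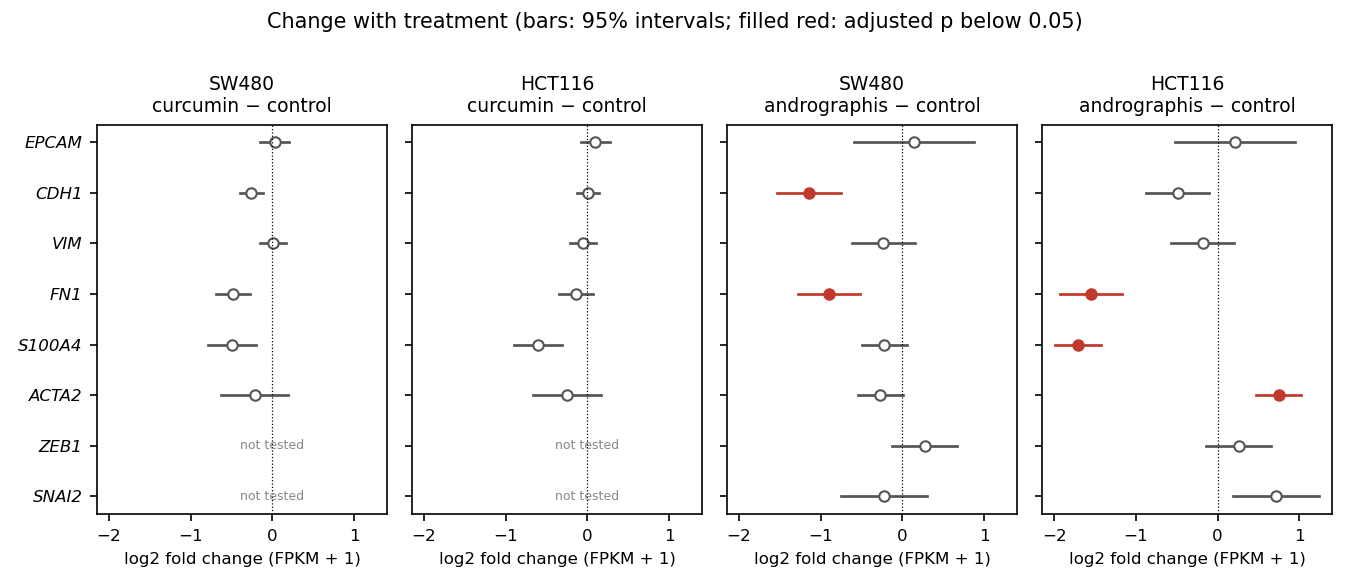
Treated minus control on the log2(FPKM + 1) scale (horizontal axis) for 8 genes in the 4 comparisons, with 95% intervals from the fit; filled red points passed an adjusted p of 0.05, open points did not, and CDH2 was not tested. The 5 filled points are CDH1 and FN1 in SW480 and FN1, S100A4 and ACTA2 in HCT116, all with andrographis.

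Both compounds were used in the same lines with separate controls and tables. S100A4 in HCT116 was at -0.61 with curcumin and at -1.71 with andrographis, FN1 in SW480 at -0.49 and -0.90, and CDH1 in SW480 at -0.26 and -1.14 on the log2 scale. The compounds were not compared by a test, since the tables were normalized separately.

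The genes around the set were described from lists of related genes, to be read against 4.21% of all genes lower and 7.28% changed in SW480, and 2.87% higher and 3.95% lower in HCT116. With andrographis in SW480, 4 of 25 tested genes of epithelial adhesion and keratins fell and none rose, with a list median of -0.26 on the log2 scale against 0.00 for all genes. KRT18 averaged 340 FPKM with andrographis and 669 FPKM in controls (-0.97, adjusted p = 0.0179), KRT8 201 and 308 FPKM (-0.61, adjusted p = 0.0411), and the mucin MUC1 0.795 and 2.38 FPKM (-0.91, adjusted p = 0.00723). Of 16 integrins and matrix receptors, 3 fell and none rose: ITGB4, the laminin receptor subunit of hemidesmosomes (52.0 FPKM with andrographis and 151 FPKM in controls, adjusted p = 0.0275), ITGA3 (48.8 and 104 FPKM, adjusted p = 0.0464) and the collagen receptor subunit ITGA1 (11.7 and 26.3 FPKM, adjusted p = 0.0187). Of 23 matrix genes, COL6A1, LOXL2 and LAMA5 fell (-0.93, -0.82 and -0.73) and none rose. Among 19 actin and contractile genes CNN2 and ACTN4 fell and the actin bundler FSCN1 rose, and among 11 genes of the S100 list, which holds the S100A10 partner ANXA2, S100A3 fell (9.63 FPKM with andrographis and 31.8 FPKM in controls). None of 16 proteases and inhibitors passed. Each of these calls was lost under at least 1 alternative.

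With andrographis in HCT116 the matrix list moved both ways, 5 genes higher and 5 lower of 23. The secreted phosphoprotein SPP1 averaged 4.77 FPKM with andrographis and 1.67 FPKM in controls (1.11, SE 0.09, adjusted p = 0.00245). The laminin chain LAMB3 averaged 63.0 and 35.3 FPKM (0.82, adjusted p = 0.0454). Of the epithelial list 2 of 25 genes rose, among them the keratin KRT19 (0.80, adjusted p = 0.0333), and of 19 actin and contractile genes the myosin light chain MYL9 rose alone (19.0 FPKM with andrographis and 10.3 FPKM in controls, adjusted p = 0.015). No gene of 11 on the S100 list, which leaves out S100A4, and none of 16 integrins and receptors passed. The proteases CTSL and ADAM17 rose, 2 of 16. In the TGF-beta list 1 of 19 genes rose and 4 fell, among them the inhibitor SMAD7 (1.98 FPKM with andrographis and 5.37 FPKM in controls), the ligand BMP4 (74.3 and 152 FPKM) and ID2 (46.0 and 93.9 FPKM). The call of SPP1 held under every alternative run on it, and each other gene named here for HCT116 lost its call under at least 1.

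The repressor SNAI1 was the only member of its list that passed with andrographis, 1 of 3 tested in each line. It averaged 2.87 FPKM in SW480 andrographis libraries and 1.53 FPKM in controls (0.62, SE 0.11, adjusted p = 0.0266), and 10.1 FPKM in HCT116 andrographis libraries and 6.72 FPKM in controls (0.52, SE 0.11, adjusted p = 0.0391). CDH1, a known target of this repressor, fell in SW480 and did not pass in HCT116, as given above. A link between the 2 genes was not tested. In the TGF-beta list of SW480, TGFB2 (0.805 FPKM with andrographis and 2.78 FPKM in controls) and ID2 fell and the activin subunit INHBA rose (2.46 and 0.765 FPKM), 2 lower and 1 higher of 19. The SNAI1 call was lost in 9 of 16 alternatives in SW480 and 6 of 16 in HCT116, and the SW480 calls of ID2, TGFB2 and INHBA in 8 of 17, 1 of 14 and 1 of 14. TGFB2 and INHBA passed the filter only through the SW480 group where each was high, which favoured a difference. They dropped out of testing in some alternatives, so their losses cannot be set beside those of ID2. With curcumin, 1 gene of all 8 lists passed in either line, ITGA1 in SW480 (24.8 FPKM with curcumin and 35.1 FPKM in controls, -0.48, adjusted p = 0.0338). That call was lost without any 1 library of the experiment (adjusted p up to 0.437).

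**Figure D5:**
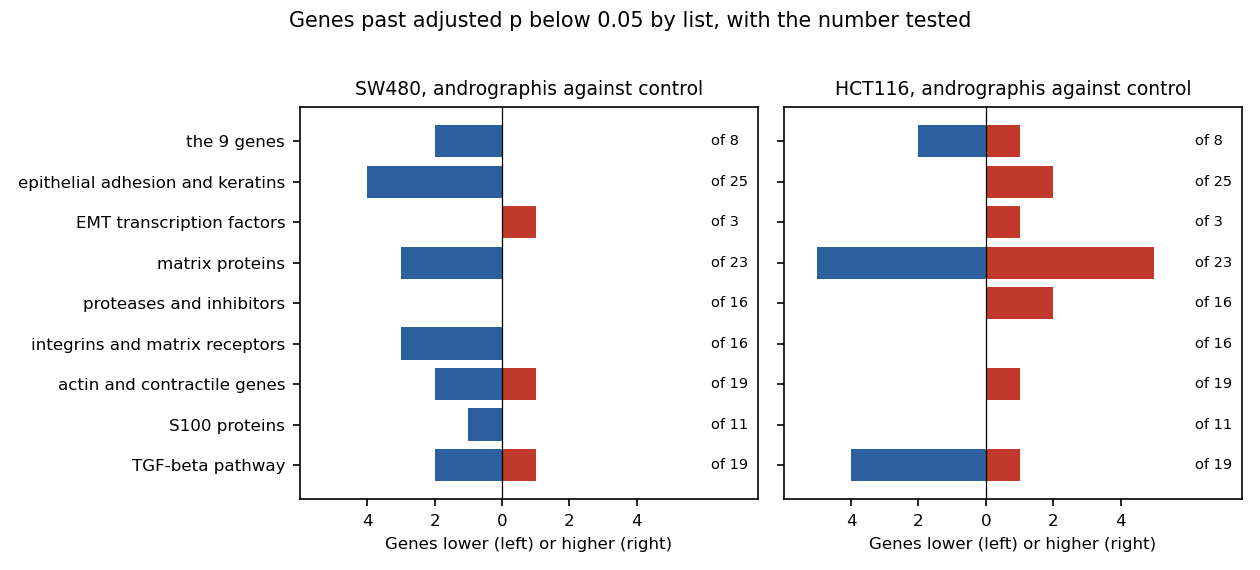
Number of genes per list that passed an adjusted p of 0.05 with andrographis (horizontal axis, lower to the left in blue and higher to the right in red), with the number tested at the right of each row, for SW480 (left) and HCT116 (right). Matrix proteins show 3 lower and none higher in SW480 and 5 in each direction in HCT116.

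Antisense neighbours were read beside the genes they overlap, since the counting is not stated to use strand and reads of such pairs cannot then be told apart. In the curcumin experiment VIM-AS1 averaged 2.10 FPKM in SW480 curcumin libraries, 2.06 FPKM in SW480 controls, 0.165 FPKM in HCT116 curcumin libraries and 0.292 FPKM in HCT116 controls, the same order of lines as VIM. ZEB1-AS1 averaged 2.41 and 2.70 FPKM in treated and control SW480 libraries and 1.02 and 1.33 FPKM in treated and control HCT116 libraries, above ZEB1 itself in each group mean. In the andrographis experiment both were at 0 in most libraries and at most 0.0317 FPKM. Non-coding genes held 14.3 to 19.1% of the FPKM sum in curcumin libraries and 2.39 to 3.06% in andrographis libraries. The part of this difference in the levels of VIM and ZEB1 was not tested.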

How the data were processed

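RNA sequencing of 16 libraries was used, 8 per experiment. The authors deposited log2(value + 1), with all libraries of an experiment in 1 table. Credited to the submitters' processing notes, without a stated role, are STAR 2.7.8a, Partek 10.0.22.0121, DESeq2, bcl2fastq 2.20.0.422 and the builds GRCh38 and mm10 (a mouse build, though all samples are human); the counting tool and the use of strand are not given in the sources used here. In low microRNA genes, 97.5 to 98.7% of values per curcumin library and 100% per andrographis library were whole multiples of 1 step (within 0.01 times the read number), so the unit was taken as FPKM, and the steps gave approximate depths and read numbers. Groups came from labels and column names, and no column was left unmapped (0). Nothing says that the libraries of a group are separate cultures, so a p-value covers the spread of these samples only, which may be technical.

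Each experiment was fitted by itself with limma 3.58.1 (R 4.3.3) at a pseudocount of 1, with 4 group means, trended eBayes and 4 residual degrees of freedom. A gene had to reach 1 FPKM in 2 or more libraries, and p-values were adjusted over all such genes (Benjamini-Hochberg). Contrasts were treated against control per line, SW480 control against HCT116 control, and the difference of effects (SW480 minus HCT116). The looser threshold follows the methods of the study. The procedure was tested on simulated data with independent noise and with changes placed in better-expressed genes of SW480 alone. That test does not bear on genes of low level or on libraries that deviate together. Sequences and figures were handled in Python 3.11.15 (pandas 2.3.3, matplotlib 3.10.9). Intervals are 95% intervals of the fit.

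All 9 genes were described in every comparison. From each related list and comparison, up to 3 genes with the largest fold change were eligible for naming, among those past the adjusted threshold whose groups did not overlap. Some genes so named are not reported here. The 9 genes and the lists were chosen with earlier results of these data known.

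The alternatives were scaling to a common median, no trend, no filter or 1 at 10 FPKM, pseudocounts of 0.1 and 10, protein-coding genes alone, a term for the replicate number, a fit on the 4 libraries compared, and leaving out each library. No count test was run, since the tables hold no counts. Protein and invasion assays were not analysed here.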

Additional observations from a re-analysis of the deposited data

Results flagged for a closer look

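The response to andrographis differed between the lines for 2 of the 8 genes tested and for 7 named genes of the related lists. The test was limma's difference of effects, SW480 minus HCT116 on the log2 scale, which 2.36% of all 12811 genes tested passed. For S100A4 the difference was 1.48 (SE 0.17, adjusted p = 0.015) and for ACTA2 -1.02 (SE 0.16, adjusted p = 0.0354). SPP1 differed by -1.08 (SE 0.13, adjusted p = 0.0212), and its SW480 libraries were at or near 0. The actin-binding genes ACTN4 and CNN2 differed by -1.17 (adjusted p = 0.0283) and -0.84 (adjusted p = 0.0449), both lower with andrographis in SW480. MYL9 differed by -1.04 (adjusted p = 0.038). The protease PLAU, urokinase, differed by -1.11 (adjusted p = 0.04) although neither line passed alone (-0.58 in SW480, adjusted p = 0.0512, and 0.54 in HCT116, adjusted p = 0.063). INHBA differed by 0.94 (adjusted p = 0.0345) and TGFB2 by -0.92 (adjusted p = 0.0407). Both were under 0.3 FPKM in HCT116 and passed the filter only through the SW480 group where each was high. Each of these differences was lost under at least 1 alternative. No such difference passed with curcumin.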

How the results depend on the processing

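With 2 libraries per group and 4 residual degrees of freedom, most calls of the 9 genes with andrographis changed with the libraries that set the spread; the cause was not tested. All 12 calls between control lines held under every alternative that tested the gene, as did the fall of S100A4 in HCT116 with andrographis. The 2 of the 12 that are for VIM had to hold, given the filter, and add nothing. With curcumin, 0 of the 9 genes passed in either line. In SW480, 1 passed at a pseudocount of 10 and 1 among protein-coding genes alone (FN1 in both). There 188 of 16341 and 302 of 11431 genes tested passed, against 50 of 16341 in the fit reported. In HCT116, 1 passed with a filter at 10 FPKM and 1 among protein-coding genes alone (S100A4 in both). There 2.31% and 1.73% of genes tested passed, against 0.171% in the fit reported. With andrographis in SW480 the count of 2, where 7.28% of all genes were called, became 1 without a filter (1.16%) and 0 with the 4 libraries alone (0.333%). It also changed with a library left out, as did the share of all genes called. In HCT116 the count of 3 became 6 with the 4 libraries compared alone, where 46.5% of all genes were called against 6.82%. That count and that share also changed with a library left out. Between control lines of the andrographis experiment 7 became 4 with a filter at 10 FPKM, where 5 of the genes were tested. In that setting 61.6% of all genes were called, against 60.7% in the fit reported. The count of 2 differences between lines became 1 without a filter, 1 with a filter at 10 FPKM and 1 at a pseudocount of 0.1. In these settings 0.494%, 2.96% and 0.601% of all genes were called, against 2.36% in the fit reported. The count and the share also changed with a library left out.

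Same-numbered libraries did not deviate together in every pair (correlations of -0.0344 to 0.562, the highest between SW480 andrographis and SW480 control), so numbers were not taken to pair the samples. In that comparison VIM and SNAI2 did not pass with the replicate block either (-0.23 and -0.22, adjusted p = 0.39 and 0.366). That block is 1 term shared by all 4 groups, so it cannot test a pairing within SW480 alone. For both genes each SW480 andrographis library lay below the control of the same number, and such a pairing was not tested. With the replicate block, the counts were 0 in SW480 and 0 in HCT116 with curcumin, and 2 in SW480 and 4 in HCT116 with andrographis. They were 5 and 7 between control lines of the curcumin and andrographis experiments, and 0 and 2 for their differences of effect. The shares of all genes called with the block were 0.0673%, 0.104%, 6.9%, 6.17%, 65.5%, 62.7%, 0% and 1.64% in the same order.

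Of 915 values of the 9 genes under an alternative, 26 changed sign, none of them called in the fit reported. At other pseudocounts these were differences between lines: -0.00379 for ACTA2 (curcumin, pseudocount 10), and 0.47 for VIM and -0.11 for ZEB1 (andrographis, pseudocount 0.1). The others came from leaving out a library, with these ranges on the log2 scale. With curcumin, VIM in SW480 ran from -0.041 to 0.048, CDH1 in HCT116 from -0.013 to 0.025, and the difference between lines from -0.048 to 0.28 for S100A4, -0.15 to 0.0071 for EPCAM and -0.13 to 0.19 for ACTA2. With andrographis in SW480, EPCAM ran from -0.37 to 0.65 and SNAI2 from -0.48 to 0.032. The difference between lines ran from -0.59 to 0.44 for EPCAM, -0.22 to 0.11 for VIM and -0.25 to 0.27 for ZEB1. EPCAM between control lines of the andrographis experiment ran from -0.12 to 0.91. Read numbers of 0 to 42 limit VIM in HCT116, SNAI2 in the curcumin experiment and CDH2 throughout.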

Other observations

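The level of several of the 9 genes differed between the control libraries of the 2 experiments, whose tables were normalized separately, so the values stand side by side without a test. In SW480 controls FN1 averaged 79.2 FPKM in the andrographis experiment and 7.33 FPKM in the curcumin experiment, SNAI2 9.02 and 0.420 FPKM, ACTA2 7.82 and 1.52 FPKM, ZEB1 3.25 and 0.958 FPKM, and VIM 20.2 and 42.8 FPKM. In HCT116 controls FN1 averaged 16.4 and 1.43 FPKM, SNAI2 0.314 and 0.0392 FPKM, and ACTA2 4.37 and 0.906 FPKM in the same order. CDH1 and S100A4 were closer, at 8.86 and 6.85 FPKM and at 227 and 321 FPKM in SW480 controls. FN1 in HCT116 thus stood above 78.1% of tested genes in the andrographis controls and above 24.2% in the curcumin controls.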
